A study of Mus musculus with 12 samples.

Results

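The glucocorticoid receptor, its activating enzyme and 7 genes induced through the receptor were examined in C2C12 myotubes given STEM or horse serum. The 9 genes were chosen by symbol, and every one of them was among the 55487 Ensembl genes listed with read counts. Of the 9 genes, 8 passed the filter on low counts and were tested beside 14175 genes in all, while Zbtb16 had no counts. C2C12 is an immortal clonal myoblast line from mouse muscle, whose cells leave the cycle and fuse in low serum. Myoblasts were grown to near confluence and differentiated for 5 days in DMEM with 2% horse serum and penicillin and streptomycin. The medium was then exchanged for 24 h, in the control group for DMEM with 4% horse serum and in the treated group for DMEM with 4% STEM, the material, free of cells, that partly differentiated human embryonic stem cells secrete. STEM took the place of horse serum, so the removal of serum and the addition of STEM cannot be told apart. Each group had 6 libraries, with the numbers 1 to 6 in the control group and 7 to 12 in the treated group, and the labels do not say whether they came from separate cultures, so p-values measure the spread between these libraries. All libraries came from this line.

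The glucocorticoid receptor (Nr3c1) is a nuclear receptor that waits in the cytoplasm in a complex of Hsp90 chaperones and immunophilins. When cortisol or corticosterone binds, the receptor enters the nucleus, binds DNA as a dimer and raises or lowers transcription of its target genes. In skeletal muscle, glucocorticoids are known for lowering protein synthesis, raising protein breakdown and causing atrophy. Serum is a natural source of glucocorticoids in culture medium, and Hsd11b1 lets a cell regenerate active hormone from its inert keto form.

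Library totals of the deposited counts ranged from 13285472 to 24536264, and levels are given as CPM, counts scaled to a library total of 1000000. Horse serum library 6 stood apart from the rest, at -53.3 on principal component 2 of log2 CPM, where the other libraries lay between 0.22 and 11.8. On principal component 1, library 6 lay at 11.2, nearer the STEM libraries (15.5 to 28.6) than the other horse serum libraries (-35.5 to -24.6). Its summed level of 8 myotube markers was 11328 CPM, against 15772 to 18079 CPM in the other horse serum libraries and 14332 to 19944 CPM with STEM. Its summed level of 5 markers of myoblasts and cycling cells was 863 CPM, against 539 to 786 CPM in the other horse serum libraries and 428 to 498 CPM with STEM. Of the 8 myotube markers, 1 was higher and 2 were lower with STEM, and of the 5 myoblast and cycling markers 3 were lower. Over all tested genes 18.9% were higher and 17.4% were lower. Markers of other cell types were near 0. The 5 macrophage markers summed to at most 5.71 CPM in any library, with Adgre1 at 0 in all, the 3 endothelial markers to at most 0.353 CPM, with Kdr at 0, and the 4 adipocyte markers to at most 0.274 CPM, with Lep and Plin1 at 0. In bulk RNA, fewer cells of a type and less RNA per cell cannot be told apart, and the part of these marker shifts in the results below was not tested. Because library 6 lay far from the rest of its group for 5 of the 9 genes, the changes of the 9 genes are given with and without it, as are the counts of the lists of related genes where they differ.

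Promoter windows were searched for exact matches of motifs near annotated starts. Elements farther from a start or with other letters were not searched for. RefSeq windows of 300 bases on GRCm38.p6, from 250 bases before to 50 bases after an annotated start, were at hand for 7 of the 9 genes, 14 windows in all, of which 6 belong to Sgk1 and 3 to Tsc22d3. A set of 4 motifs was searched on both strands.
The full receptor element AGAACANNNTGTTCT, a palindrome of 15 letters, was present in 3 of 32851 windows of all genes (0.00913%), and 1 of the 3 was a window of Sgk1, where it begins 189 bases before the start. A single arm of the element, AGAACA or TGTTCT, was present in 19.0% of all windows and, among these genes, in 3 windows of Sgk1 and 1 of Tsc22d3. Every full element also counts as a pair of arms. The cAMP response element TGACGTCA was present in 1.79% of all windows and in the window of Dusp1. The CCAAT box, CCAAT or ATTGG, was present in 37.4% of all windows, and in those of Hsd11b1, Fkbp5, Klf9 and Klf15 and in 2 of Sgk1. The 4 windows shown are the one with the full element and 3 of genes that fell with STEM, and capitals mark the full element in Sgk1, the single arm in Tsc22d3, the CCAAT box in Hsd11b1 and the cAMP element in Dusp1. Each is written along the strand of its gene, from chr10:21993640-21993939 (plus strand) for Sgk1, chrX:140600473-140600772 (minus) for Tsc22d3, chr1:193242311-193242610 (minus) for Hsd11b1 and chr17:26508423-26508722 (minus) for Dusp1.
Sgk1: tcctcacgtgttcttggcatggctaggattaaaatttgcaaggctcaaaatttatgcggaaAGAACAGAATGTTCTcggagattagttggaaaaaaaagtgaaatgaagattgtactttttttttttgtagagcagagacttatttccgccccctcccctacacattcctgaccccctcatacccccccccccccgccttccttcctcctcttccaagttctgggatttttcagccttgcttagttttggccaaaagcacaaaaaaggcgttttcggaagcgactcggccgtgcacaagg
Tsc22d3: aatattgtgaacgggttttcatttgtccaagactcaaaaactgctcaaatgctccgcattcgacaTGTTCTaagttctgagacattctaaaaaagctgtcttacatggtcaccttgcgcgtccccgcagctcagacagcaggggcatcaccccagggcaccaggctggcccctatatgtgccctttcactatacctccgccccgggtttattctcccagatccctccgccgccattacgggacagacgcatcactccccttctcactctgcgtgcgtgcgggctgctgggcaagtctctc
Hsd11b1: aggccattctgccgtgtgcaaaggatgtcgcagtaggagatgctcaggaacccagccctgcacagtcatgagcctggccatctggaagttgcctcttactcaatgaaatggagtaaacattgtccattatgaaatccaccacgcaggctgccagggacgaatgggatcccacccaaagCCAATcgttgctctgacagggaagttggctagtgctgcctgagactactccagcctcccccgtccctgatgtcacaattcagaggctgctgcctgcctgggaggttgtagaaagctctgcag
Dusp1: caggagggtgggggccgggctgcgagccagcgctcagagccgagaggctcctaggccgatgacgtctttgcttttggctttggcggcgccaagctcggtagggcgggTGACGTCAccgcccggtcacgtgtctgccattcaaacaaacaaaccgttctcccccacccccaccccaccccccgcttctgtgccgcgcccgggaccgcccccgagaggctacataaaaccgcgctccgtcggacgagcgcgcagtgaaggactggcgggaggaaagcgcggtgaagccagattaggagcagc
A match of letters is a description and not a bound site. The counts are per gene and do not show which start was used.

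With 4% STEM, the receptor gene itself and its activating enzyme were both lower, and the induced genes did not move as a block. Hsd11b1 fell by 39.9%, the largest change of the 8 genes tested, Tsc22d3 by 26.1%, Nr3c1 by 20.2%, Klf9 by 20.1% and Dusp1 by 18.4%. Sgk1 rose by 17.0%. The calls of Sgk1 and Dusp1 were less firm, as they were lost in 9 and 7 of the 12 fits without 1 library. Fkbp5 did not pass the test with all libraries (log2 fold change 0.14), Klf15 was close to the limit of detection, and Zbtb16 was not detected. In all, 6 of the 8 tested genes were differentially expressed with an adjusted p of at most 0.05 (quasi-likelihood test of edgeR, adjusted by Benjamini-Hochberg over the 14175 genes), against 36.4% of all tested genes. Of these, 5 were lower, against 17.4% of all tested genes, and 1 was higher, against 18.9%. The median log2 fold change of the 8 genes was -0.31, and that of all tested genes was 0.01. Without horse serum library 6, 7 of the 8 genes were differentially expressed, 5 lower and 2 higher, against 50.8% of all genes tested without it, 24.5% lower and 26.3% higher. The share called and the share lower lay above those of all genes and the share higher lay below, but 8 genes are few and these differences were not tested.

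**Figure D1:**
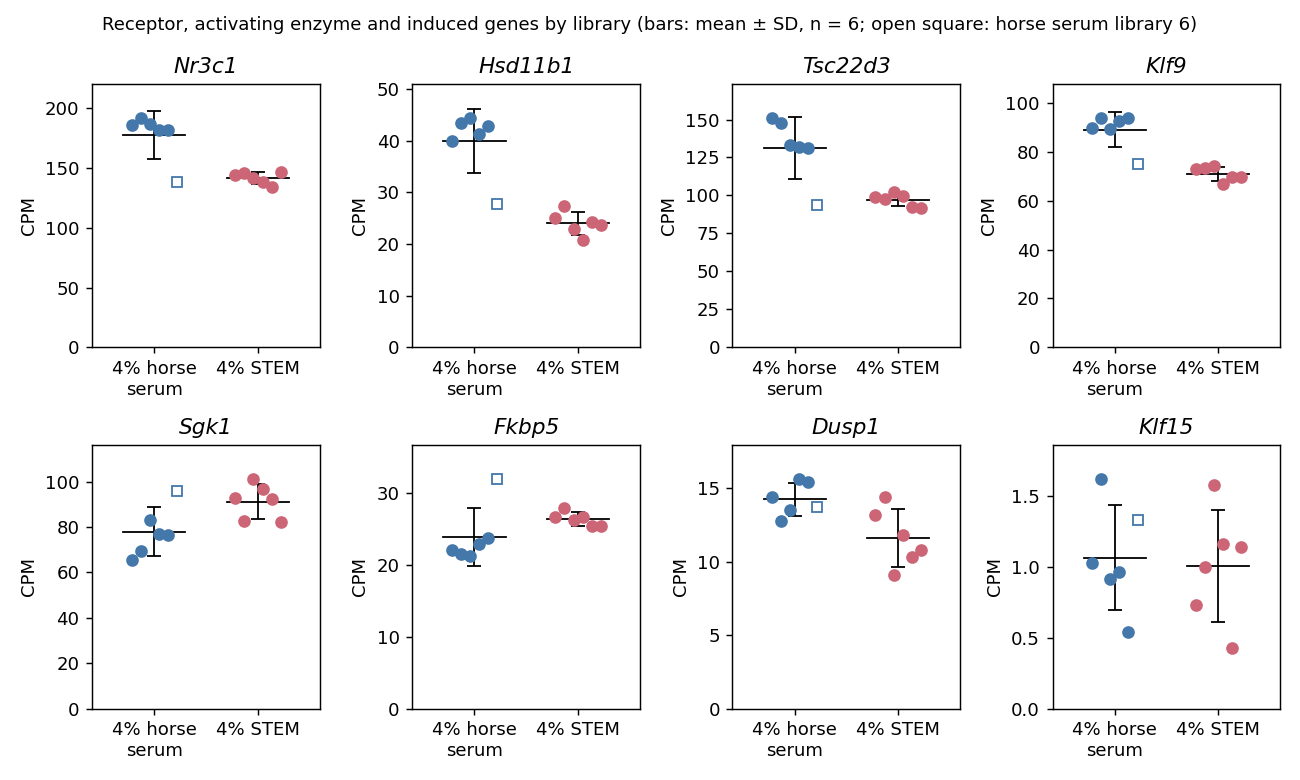
Level in CPM of the 8 detected genes in each of the 12 libraries, with the mean and SD of 6 libraries per group as lines and bars, and horse serum library 6 as an open square. For Nr3c1, Tsc22d3, Hsd11b1 and Klf9 the square lies at or next to the STEM libraries, while the other 5 horse serum libraries lie above every STEM library.

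The receptor gene Nr3c1 (ENSMUSG00000024431, chromosome 18, 39410545 to 39519421 on GRCm38) is annotated as protein coding, as are all 9 genes. With horse serum its lowest, median and highest values were 138, 184 and 192 CPM, and with STEM they were 134, 143 and 147 CPM. All 6 STEM libraries lay below the median of the horse serum libraries, and the groups overlapped only through horse serum library 6, which at 138 CPM was the lowest of its group. The means were 178 ± 19.6 and 142 ± 4.92 CPM (SD, n = 6 each), and edgeR put the log2 fold change at -0.33 with a standard error of 0.0671 and an adjusted p of 0.00159. Without library 6 the horse serum mean was 186 ± 4.11 CPM (SD, n = 5) and the log2 fold change in edgeR came to -0.39, with a standard error of 0.0354 and an adjusted p of 4.22e-08.

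Hsd11b1 (ENSMUSG00000016194, chromosome 1, 193221634 to 193264075) encodes the reductase that turns cortisone or 11-dehydrocorticosterone back into active hormone inside the cell. Its values were 27.8, 42.1 and 44.4 CPM (lowest, median, highest) with horse serum and 20.8, 23.9 and 27.3 CPM with STEM. The groups did not overlap, but the margin was narrow, since the lowest horse serum value was again that of library 6. The groups of 17.2% of all tested genes did not overlap, and among these 8 genes this held for Hsd11b1 and Klf9. The mean of Hsd11b1 fell from 40.0 ± 6.15 to 24.0 ± 2.19 CPM (SD, n = 6 each), which edgeR put at -0.73 on the log2 scale, with a standard error of 0.102 and an adjusted p of 6.98e-05. Without library 6 the log2 fold change was larger, at -0.82, with a standard error of 0.061 and an adjusted p of 3.3e-09 in edgeR. Within the STEM group, libraries 7 and 8 had the highest levels of Hsd11b1, and also of Dusp1.

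Tsc22d3 (ENSMUSG00000031431, chromosome X, 140539528 to 140600659) encodes GILZ, a leucine zipper protein that carries part of the anti-inflammatory action of glucocorticoids. Its lowest, median and highest values were 93.4, 133 and 151 CPM with horse serum and 92.0, 98.5 and 102 CPM with STEM. As for the receptor, the only horse serum library within the range of the STEM libraries was library 6, at 93.4 CPM. The group means of 132 ± 20.6 and 97.1 ± 4.10 CPM (SD, n = 6 each) were -0.44 apart on the log2 scale, with a standard error of 0.0904 and an adjusted p of 0.00177 in edgeR. Without library 6 the log2 difference was -0.52 (edgeR adjusted p = 2.81e-08).

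Klf9 (ENSMUSG00000033863, chromosome 19, 23141226 to 23168134) is a zinc finger transcription factor induced directly by the receptor in many tissues. It ranged from 75.0 to 94.0 CPM with horse serum (median 91.4) and from 66.8 to 74.3 CPM with STEM (median 71.5). No STEM library reached the lowest horse serum library, which was library 6. On average Klf9 was at 89.2 ± 7.22 and 71.2 ± 2.88 CPM (SD, n = 6 each), with a log2 fold change of -0.32 in edgeR, a standard error of 0.0554 and an adjusted p of 0.000379. Without library 6 it was -0.37.

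Dusp1 (ENSMUSG00000024190, chromosome 17, 26505590 to 26562128) encodes a phosphatase that switches off MAP kinases and is induced by serum and stress as well as by glucocorticoids. Its lowest, median and highest values were 12.8, 14.1 and 15.6 CPM with horse serum and 9.08, 11.3 and 14.4 CPM with STEM. STEM libraries 7 and 8, at 13.2 and 14.4 CPM, lay among the horse serum libraries, and the other 4 lay below all of them. Dusp1 had a log2 fold change of -0.29 with a standard error of 0.103, and an adjusted p of 0.036 in edgeR, and of -0.30 without library 6. This call was lost, with adjusted p-values from 0.0543 to 0.0807, when horse serum library 1, 4 or 5 or STEM library 9, 10, 11 or 12 was left out. An exon of Dusp1 overlaps 1 gene of the opposite strand, Ergic1, which did not pass the test (81.8 ± 5.81 against 83.6 ± 1.77 CPM, log2 fold change 0.03). Whether the counting used the strand is not given in the sources used here, so reads from the overlap cannot be assigned with certainty.

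Sgk1 (ENSMUSG00000019970, chromosome 10, 21882184 to 21999903), a kinase that raises ion transport and curbs FOXO factors, went the other way. Its lowest, median and highest values were 65.7, 76.8 and 96.1 CPM with horse serum and 82.1, 92.5 and 101 CPM with STEM. All 6 STEM libraries lay above the median of the horse serum libraries, but 2 of them lay below horse serum library 3 (82.9 CPM), and library 6 (96.1 CPM) was higher than 4 of them. The means of 77.9 ± 10.8 and 91.3 ± 7.63 CPM (SD, n = 6 each) corresponded to a log2 fold change of 0.23, with a standard error of 0.0835 and an adjusted p of 0.0456 in edgeR. The call was lost when any 1 of horse serum libraries 1 to 5 or of STEM libraries 7, 9, 10 and 11 was left out (adjusted p from 0.0531 to 0.101 in edgeR), and it was stronger without library 6 (log2 fold change 0.30, adjusted p = 0.00107).

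Fkbp5 (ENSMUSG00000024222, chromosome 17, 28399094 to 28517527) encodes an immunophilin of the receptor complex that lowers hormone binding, and its induction by the receptor closes a feedback loop. Its values were 21.2, 22.5 and 31.9 CPM (lowest, median, highest) with horse serum and 25.4, 26.4 and 27.9 CPM with STEM. All 6 STEM libraries lay above 5 of the horse serum libraries, whose highest value was 23.8 CPM, and below library 6, which at 31.9 CPM had the highest level of all 12. With all libraries Fkbp5 did not pass the test (log2 fold change 0.14, 95% interval -0.05 to 0.33, adjusted p = 0.249 in edgeR). Without library 6 it was higher with STEM, by 0.24 on the log2 scale, with a standard error of 0.0539, an adjusted p of 0.00102 in edgeR and no overlap between the groups, and the call of Fkbp5 therefore rested on that library. Fkbp5 and Tsc22d3, both used as readouts of receptor activity, had log2 fold changes of opposite sign.

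Klf15 (ENSMUSG00000030087, chromosome 6, 90462576 to 90475238), a transcription factor of amino acid and lipid use that glucocorticoids induce in muscle, had only 7 to 26 counts per library. The means were 1.07 ± 0.37 against 1.01 ± 0.395 CPM (SD, n = 6 each), and the groups overlapped over nearly all of their range. The log2 fold change was -0.10 with a 95% interval from -0.73 to 0.53, so that a change of moderate size in either direction was not detectable at this depth. Zbtb16 (ENSMUSG00000066687, chromosome 9, 48654297 to 48836222), the gene of the PLZF zinc finger protein and a sensitive glucocorticoid target in many cells, had 0 counts in all 12 libraries. A count of 0 allows up to 3 counts, a limit that covers counting error only. Scaled to the library total without normalization, unlike the other CPM, this is between 0.122 and 0.226 CPM depending on the library.

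**Figure D2:**
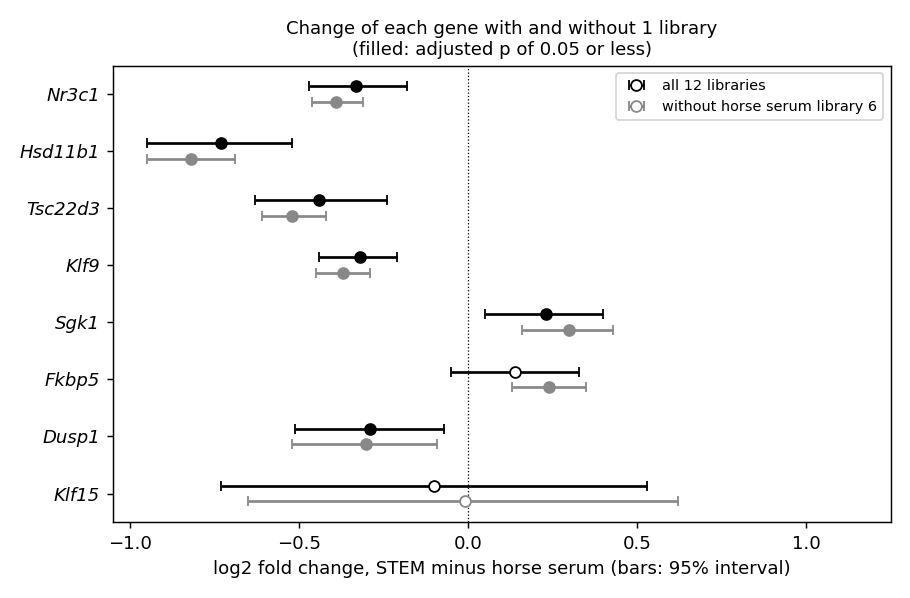
Log2 fold change of each detected gene between STEM and horse serum, with its 95% interval, for all 12 libraries (black) and without horse serum library 6 (grey), and with filled points where the adjusted p-value was 0.05 or less. Nr3c1, Hsd11b1, Tsc22d3, Klf9 and Dusp1 lie below 0 in both, Sgk1 lies above 0 in both, and Fkbp5 is filled only without library 6.

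Horse serum library 6 was nearer to the STEM mean than to the mean of its own group's other 5 libraries for 6 of 7 genes that were differentially expressed without it. Over all genes differentially expressed without library 6, this held for 4223 of 7245 genes (58.3%). The exception among the 7 was Dusp1, at 13.7 CPM in library 6. Without library 6, the groups did not overlap for 5 of the 8 genes, Nr3c1, Hsd11b1, Tsc22d3, Klf9 and Fkbp5, against 33.3% of all genes tested without it. The library carries the horse serum label and was kept. Leaving it out shrank the coefficient of variation in the horse serum group from 8.10% to 2.31% for Klf9, from 15.7% to 6.96% for Tsc22d3 and from 16.9% to 4.75% for Fkbp5. The STEM libraries varied little for the same genes, by 4.04%, 4.22% and 3.59%. Dusp1 was different, since its coefficient of variation was 7.62% with horse serum and 16.8% with STEM.

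Levels were compared between genes as CPM per kilobase of merged exons. With horse serum Tsc22d3 had the highest level (30.3 ± 4.74 CPM per kilobase, SD, n = 6), followed by Nr3c1 (23.1 ± 2.56), Klf9 (18.5 ± 1.50), Sgk1 (15.9 ± 2.20), Hsd11b1 (9.41 ± 1.45), Dusp1 (4.30 ± 0.328), Fkbp5 (2.53 ± 0.427) and Klf15 (0.383 ± 0.133). Tsc22d3 and Nr3c1 did not differ beyond their SDs in this order, nor did Klf9 and Sgk1. With STEM the order changed in 1 place, as Sgk1 (18.6 ± 1.56 CPM per kilobase) moved level with Nr3c1 (18.5 ± 0.64) and above Klf9 (14.8 ± 0.598). The mineralocorticoid receptor Nr3c2, which binds the same hormones, was present at 2.60 ± 0.694 against 2.35 ± 0.567 CPM, unscaled for length, and its log2 fold change of -0.12 did not pass the test (adjusted p = 0.664 in edgeR).

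**Figure D3:**
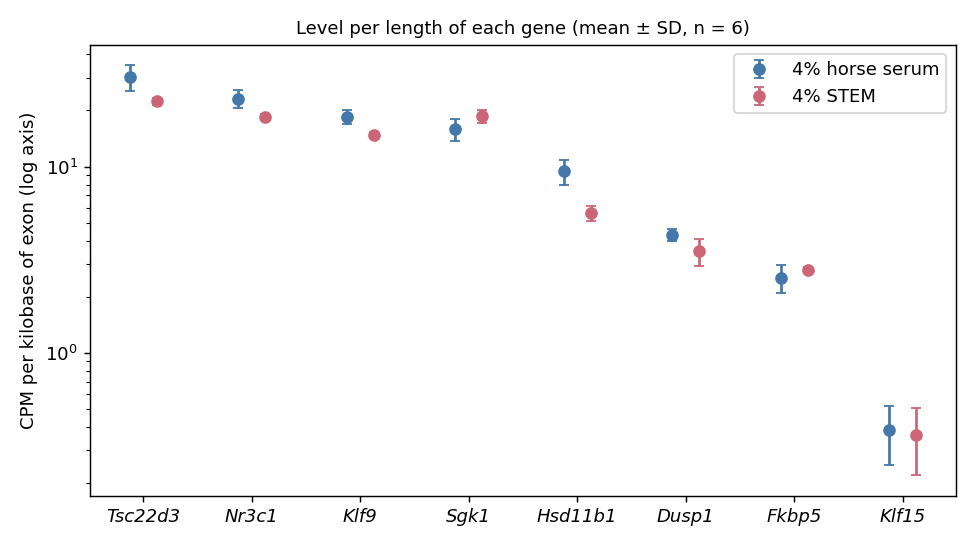
Mean CPM per kilobase of merged exons with its SD (n = 6 per group, log axis) for the 8 detected genes, ordered by their level with horse serum. Tsc22d3 is highest in both groups, at 30.3 and 22.4, and Klf15 lowest, at 0.383 and 0.361.

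The partners of the receptor were examined as a list of 24 genes, for its chaperones, immunophilins and coregulators and for the mineralocorticoid receptor Nr3c2. All 24 were tested, 6 were higher with STEM, 0 were lower and 18 did not pass, with a median log2 fold change of 0.12. Over all tested genes 18.9% were higher and 17.4% were lower. Without library 6, 15 of the 24 were higher and 0 lower, against 26.3% and 24.5% of all genes tested without it. The chaperone genes Hspa8 (log2 fold change 0.35), Hsp90aa1 (0.21) and Hsp90ab1 (0.12) rose. So did the immunophilin gene Ppid (0.39) and the remodelling ATPase gene Smarca4 (0.32). These 5 are named after their values were seen. The call of Hsp90ab1 was lost when any 1 of horse serum libraries 1, 2, 3 and 5 or of STEM libraries 7, 8, 10 and 11 was left out (adjusted p from 0.0588 to 0.115 in edgeR). Fkbp4, another immunophilin of the complex, was at 140 ± 7.25 against 143 ± 9.52 CPM, and its log2 fold change of 0.03 did not pass the test.

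The genes of hormone supply and removal formed a list of 11, of which 6 were tested and 3 were higher with STEM, against 18.9% of all tested genes. Without library 6, 4 of the 6 were higher and 1 was lower, against 26.3% and 24.5% of all genes tested without it. The drug exporters Abcb1a and Abcb1b, which can carry glucocorticoids out of cells, had log2 fold changes of 0.83 and 0.52 (adjusted p = 0.00199 and 0.00571 in edgeR). They are close paralogs, so the counting could have split reads between them. Serpina6, the plasma carrier of glucocorticoids, had a log2 fold change of 1.17 on only 3 to 25 counts per library. H6pd, which supplies the cofactor of the Hsd11b1 enzyme, was at 63.4 ± 1.91 against 58.8 ± 2.25 CPM, and its log2 fold change of -0.11 missed the threshold (adjusted p = 0.0503 in edgeR), while without library 6 it was called lower (adjusted p = 0.0361). Hsd11b2, the enzyme that inactivates the hormone, did not pass the filter, and no gene of this list outside the tested ones exceeded 6 counts in a library.

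Of 32 other genes known to be induced by glucocorticoids, 26 were tested, 14 were lower with STEM, 4 were higher and 8 did not pass, with a median log2 fold change of -0.23, against 17.4% lower and 18.9% higher over all tested genes. Without library 6 the counts were again 14 lower and 4 higher, against 24.5% and 26.3%. The metallothionein genes Mt1 and Mt2, which zinc also induces, had the largest falls (log2 fold changes of -2.67 and -3.21), and reads could have been split between them. Sesn1, an inhibitor of mTORC1 signalling, fell from 74.0 ± 4.61 to 44.0 ± 3.52 CPM, Pdk4, which limits glucose oxidation, from 21.7 ± 1.98 to 13.0 ± 1.66 CPM, and the glutamine synthetase gene Glul from 184 ± 23.4 to 116 ± 9.98 CPM (SD, n = 6 each). Their log2 fold changes were -0.75, -0.73 and -0.66. The groups did not overlap for any of the 3, against 17.2% of all tested genes, but these 3 were picked for their low p-values. The 4 genes that rose, named after their values were seen, were Crispld2 (log2 fold change 1.99, on 2 to 42 counts per library), Angptl4 (1.01), Foxo1 (0.50) and Cdkn1a (0.19). The clock gene Per1 (-0.53) and Cebpd (-0.52), both rapid targets of the receptor, were among the genes that fell, as was the atrophy ligase gene Trim63 (-0.76), while Fbxo32, the other atrophy ligase, had a log2 fold change of -0.11 that did not pass the test. These 4 were also named after their values were seen.

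Of 18 genes that glucocorticoids are known to repress, 9 were tested, 4 were higher with STEM, 2 were lower and 3 did not pass, against 18.9% higher and 17.4% lower over all tested genes. Without library 6, 4 were higher and 3 lower, against 26.3% and 24.5% of all genes tested without it. Lif and Il6, cytokines of the same family, had log2 fold changes of 1.40 and 1.30 (adjusted p = 4.17e-05 and 0.000147 in edgeR), with Il6 at only 10 to 74 counts per library. Il1b had a log2 fold change of 0.69 on 10 to 31 counts, and its call was lost when any 1 of horse serum libraries 1 to 5 or of STEM libraries 8, 9, 11 and 12 was left out (adjusted p from 0.0555 to 0.0703 in edgeR). Vcam1, an adhesion molecule, fell from 101 ± 5.04 to 57.9 ± 5.39 CPM (log2 fold change -0.80, adjusted p = 2.33e-07 in edgeR), and the chemokine gene Cxcl5 had a log2 fold change of -1.52 on 4 to 46 counts. Igf1, which glucocorticoids lower in muscle, had a log2 fold change of 0.39 and was the last of the 4 higher genes. Over the 9 tested genes the median was 0.39 on the log2 scale.

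**Figure D4:**
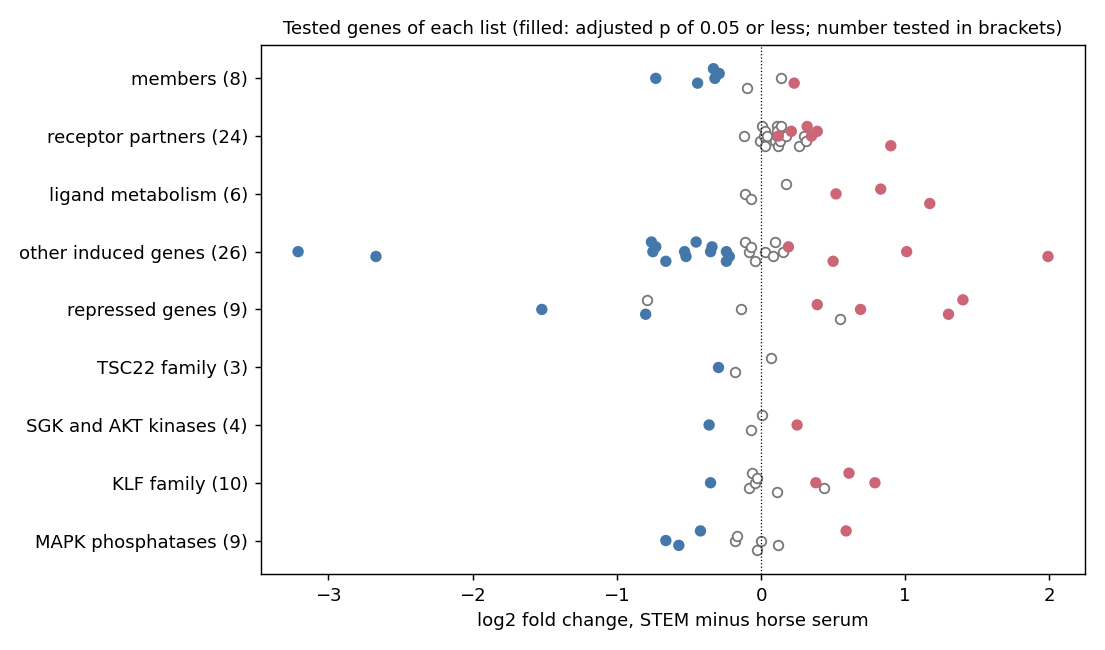
Log2 fold change between STEM and horse serum of every tested gene of each list, with filled points where the adjusted p-value was 0.05 or less (red higher, blue lower) and open points elsewhere, and the number of tested genes in brackets. Among the other induced genes 14 of 26 are filled and lower, and among the receptor partners 6 of 24 are filled and all are higher.

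Paralogs of the induced genes were examined beside them. Of the TSC22 family, Tsc22d2 fell (log2 fold change -0.30, adjusted p = 0.00868 in edgeR), while Tsc22d1 (-0.18) and Tsc22d4 (0.07) did not pass the test. Tsc22d1 passed without library 6 (log2 fold change -0.25, adjusted p = 9.74e-05 in edgeR). Among the kinases related to Sgk1, Akt1 rose by a log2 fold change of 0.25, while Sgk3 (-0.07, at 3.27 ± 0.66 and 3.12 ± 0.529 CPM) and Akt2 (0.01) did not pass, and Sgk2 had 0 counts in all libraries. Of the 15 other Krüppel-like factors, 10 were tested, 3 were higher and 1 was lower, against 18.9% and 17.4% of all tested genes. Klf4 and Klf10, both early response genes, had log2 fold changes of 0.79 and 0.61, opposite in sign to that of Klf9, and the lower gene was Klf11 (-0.35, named after its value was seen). Of 9 other MAP kinase phosphatases, all were tested, 3 were lower and 1 was higher, against 17.4% and 18.9% of all tested genes. Without library 6, 3 were lower and 2 higher, against 24.5% and 26.3% of all genes tested without it. Dusp4 (log2 fold change -0.57) and Dusp10 (-0.66) fell as Dusp1 did, and Dusp8 (0.59) rose. The third lower gene, Dusp6 (-0.42), was named after its value was seen.

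For each of the 8 tested genes, the genes with the most similar profile were sought by the root-mean-square difference of log2 CPM over the 12 libraries, each profile centred on its own mean. The closest to Nr3c1 were Slc25a36 (0.041) and Ttc3 (0.043), against a median of 0.289 over all tested genes. The closest to Tsc22d3 were Emp2 (0.039) and Auh (0.052), and to Klf9 Arhgap10 (0.042) and 1810013L24Rik (0.046). Hsd11b1 was nearest to Klhl24 (0.059) and Cnksr3 (0.092), Fkbp5 to Snhg17 (0.063) and Dusp7 (0.066), and Sgk1 to Olfml2b (0.071) and Tmem185b (0.073). Dusp1, at 0.125 from both Clk4 and Tmsb10, and Klf15, at 0.333 from Gm4613 and 0.334 from AC168306.1, had no profile as close. Both also had the lowest mean CPM of the 8 tested genes, and the part of counting error in this was not tested. None of the 8 tested genes was among the 2 nearest profiles of another. With only 2 kept per gene, this does not measure how alike the profiles of the 8 genes were.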

How the data were processed

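Total RNA of C2C12 myotubes was depleted of ribosomal RNA and made into 12 stranded libraries, with 6 libraries per group assigned by the sample labels. The authors deposited raw read counts per Ensembl gene without normalization. The submitters' processing notes name STAR 2.7.3a, featureCounts 1.6.3, DESeq2 1.26.0 and build GRCm38, while the annotation release and strand setting are not given in the sources used here. Symbols, coordinates and merged exon lengths were taken from GENCODE M21 (GRCm38), which held 55227 of the 55487 listed genes. Counts were tested with edgeR 4.0.16 in R 4.3.3 (filterByExpr, TMM, robust quasi-likelihood fit, Benjamini-Hochberg adjustment over all tested genes, threshold 0.05). DESeq2 1.42.0 (Wald test) and limma 3.58.1 (voom) were alternatives, with other scalings, other filters and each library left out. Intervals are 95% and follow from the standard error and the degrees of freedom of the fit. CPM are counts scaled to a TMM-normalized total of 1000000, and log2 CPM used a prior count of 2. Chi-square per degree of freedom between libraries of a group was 3.29 or more. Each library was counted as its own sample, but this value cannot show whether the libraries came from separate cultures. The test was checked on simulated data. The 9 genes, the 8 lists of related genes and the 5 marker lists were chosen with earlier results of these data known. Named genes outside the 9 were, per list, at most 5 called genes of lowest p with an absolute log2 fold change of 0.5 or more, the tested TSC22, SGK and AKT genes, the 2 nearest profiles per gene, and those marked as chosen after their values were seen. A few genes that this rule names are not reported here. Nr3c2, Fkbp4, H6pd, Igf1 and Ergic1 were also chosen that way.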

Additional observations from a re-analysis of the deposited data

Results flagged for a closer look

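In 108 groups of 6 libraries, for 54 genes given with a fold change in each treatment, 16 had a library whose gap to the nearest of the others was above Dixon's 95% critical value for 6 samples, where chance gives about 1 in 20 groups. Of the 16, 14 were horse serum library 6. It was lowest in its group for Nr3c1 (138 CPM, others from 182), Hsd11b1 (27.8 CPM, others from 40.0), Tsc22d3 (93.4 CPM, others from 131), Klf9 (75.0 CPM, others from 89.6), Dusp10 (30.9 CPM, others from 56.8), Trim63 (35.6 CPM, others from 71.5) and Tsc22d1 (325 CPM, others from 434). It was highest for Fkbp5 (31.9 CPM, others up to 23.8), Abcb1b (24.0 CPM, others up to 15.2), Cxcl5 (2.36 CPM, others up to 1.23), Il1b (1.59 CPM, others up to 0.964), Smarca4 (118 CPM, others up to 92.8), Ergic1 (92.9 CPM, others up to 81.8) and Il6 (1.23 CPM, others up to 0.846). The other two were STEM library 7 for Il6 (3.02 CPM, others up to 2.22) and horse serum library 3 for Nr3c2 (3.95 CPM, others up to 2.62). The 14 values share 1 library and are not independent of each other.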

How the results depend on the processing

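Across 6 other scalings, filters and tests and 12 fits without 1 library each, the number of differentially expressed genes of the 9 lay between 4 and 7, that of all genes between 4459 and 7245, and that of the related lists together between 40 and 58 (44 in the report). Nr3c1, Hsd11b1, Tsc22d3 and Klf9 kept their direction and call in all 18. With library totals only, Sgk1 (log2 fold change 0.24, adjusted p = 0.0758 in edgeR) and Dusp1 (-0.27, adjusted p = 0.0508) were not called, and Sgk1 was also lost at 0.22 without a filter on low counts (adjusted p = 0.056) and with at least 10 counts in every library (0.22, adjusted p = 0.0546). Both were called with DESeq2 and limma-voom. With 1 library left out, the log2 fold change of Sgk1 lay between 0.18 and 0.30, of Dusp1 between -0.36 and -0.23, of Fkbp5 between 0.10 and 0.24 (called without horse serum library 6 only) and of Klf15 between -0.27 and 0.05. Klf15 changed sign, at 0.04 without horse serum library 2 and at 0.05 without STEM library 11, and so did Akt2 (-0.05) and Sgk3 (0.01, from -0.15 over these fits) without horse serum library 6, and Nr3c2 (0.03, from -0.25) without horse serum library 3, with none of the 4 called. Klf15 gave no value with at least 10 counts in every library. The receptor partners called ranged from 5 to 15, with 15 without library 6, where the genes of hormone supply went from 3 to 5 and the TSC22 family from 1 to 2. Of 825 values of 46 other named genes under the alternatives, 796 kept direction and call, 20 lost a call (all of Il1b and Hsp90ab1), 6 gained 1 (H6pd and Tsc22d1) and 3 changed sign. The median log2 fold change of all genes moved by at most 0.019 with scaling. The cause of these differences was not tested. No paired analysis was possible because the groups share no replicate numbers.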
